A study of Rhinolophus ferrumequinum with 8 samples.

Results

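Linker histones of the H1 family were followed in the spleen of the greater horseshoe bat (Rhinolophus ferrumequinum), a hibernating species. The genes were taken by name: every row of the deposited gene table whose symbol starts with H1-, which gave 3 rows, H1-4, H1-1 and H1-5, of 19652. The family was picked with a result in view, chosen by the level of H1-4 in torpor over that in summer active, so that difference is described here and not tested. RNA from whole spleen of wild female bats was sequenced in 8 libraries, 2 biological replicates for each of 4 states. The summer active group dates from July. The other groups date from November: torpor, the cold and low-metabolism phase of hibernation, arousal, taken 2 h after capture, and winter active, taken 26 h after capture. Season, time in captivity and body state therefore change together in some of the comparisons and cannot be told apart there. No source used here gives ages or genotypes.

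Linker histones bind the nucleosome where DNA enters and leaves it and help to fold chromatin into more compact forms. H1-1, H1-4 and H1-5 are somatic H1 subtypes whose genes belong, in mammals, to the large cluster of replication-dependent histone genes. Such genes are transcribed mainly while DNA is copied, and most of their messages end in a stem-loop in place of a poly(A) tail, although some also yield polyadenylated transcripts in cells that have stopped dividing. No source used here says whether these libraries were selected for poly(A). The coding parts of H1 subtypes resemble each other closely, so reads can be divided between copies, and each level below carries that uncertainty. H1 genes that the annotation lists under other names, such as a locus number, were not analysed here as members.

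Levels are rescaled TPM, a length-corrected abundance that the authors' processing adjusted between libraries, with column totals from 745098 to 1331820. Depth is unknown, so no counting interval is given. Markers of spleen cells were present in each library, with summed levels of 542 to 2737 for 6 B cell genes, 28.2 to 82.5 for 3 T cell genes and 3334 to 14096 for 7 macrophage genes. None of the matched markers of male germ cells (3) or oocytes (3), cells that have H1 subtypes of their own, reached a mean of 1 over the 8 libraries.

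Among the linker histone genes taken by name, H1-4 (NCBI gene 117015308) was the 1 with more than trace levels, and it was highest in torpor. It stood at 24.2 and 13.0 in the torpor libraries and at 7.87 and 6.58 in the arousal libraries. In summer it stood at 1.86 and 1.08, and in winter active bats at 0.846 and 1.79. Both torpor libraries lay above both arousal libraries, which in turn lay above all summer and winter active libraries, while summer and winter active overlapped. In whole tissue, a change in the number of cells of a type and a change in RNA per cell cannot be told apart. As means ± SD (n = 2 libraries each), torpor stood at 18.6 ± 7.94, arousal at 7.22 ± 0.911, summer active at 1.47 ± 0.547 and winter active at 1.32 ± 0.665. The order was thus torpor, arousal, summer active and winter active, and the last 2 did not differ beyond their spread. Torpor also held the widest gap between replicates, 0.85 on the log2 scale with 1 added to each level, against 0.23 in arousal, 0.46 in summer active and 0.59 in winter active.

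**Figure D1:**
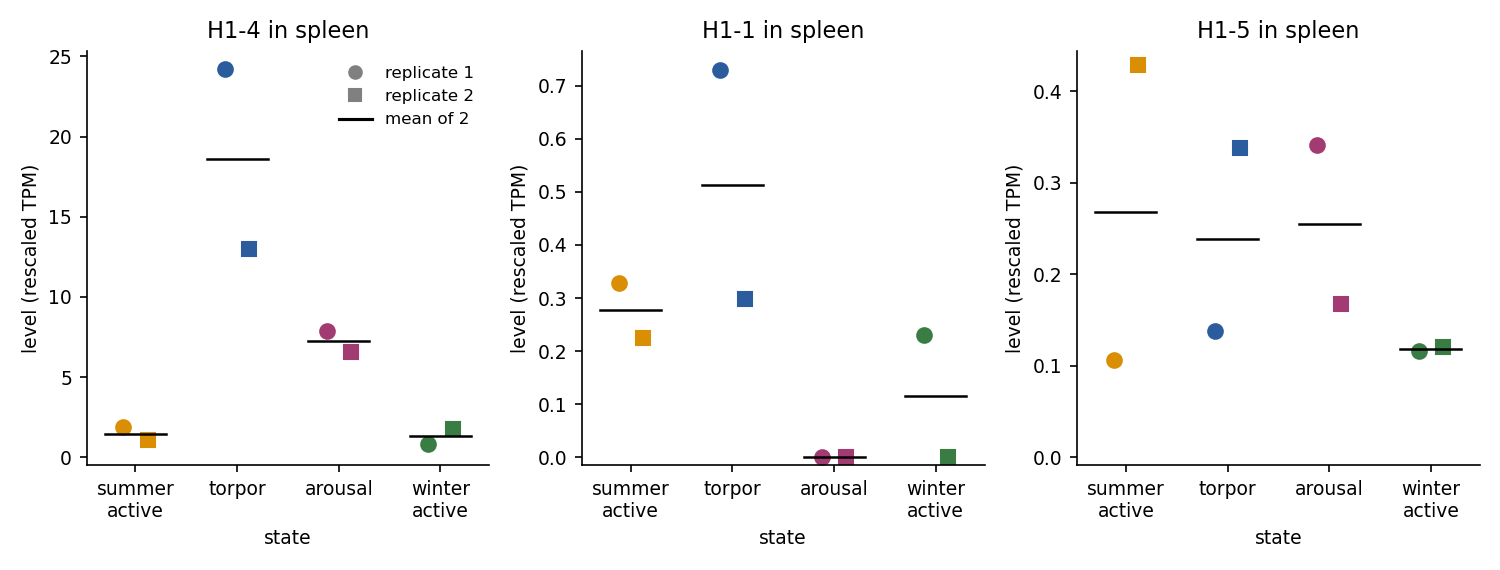
Levels (rescaled TPM, linear axes that differ between panels) of H1-4, H1-1 and H1-5 in each library by state; circles are replicate 1, squares replicate 2 and bars the mean of 2. H1-4 stands at 24.2 and 13.0 in torpor, at 7.87 and 6.58 in arousal and below 2 in the other 4 libraries, while H1-1 and H1-5 stay below 1 in all 8.

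The place of H1-4 among all genes moved with its level. In torpor 1 and torpor 2 it stood at or above 76.5% and 66.2% of the genes in the table, and in the arousal libraries at or above 54.6% and 50.9%. In the summer active and winter active libraries the share was between 31.8% and 37.9%. H1-4 was thus a gene of low to middling abundance that entered the upper part of the ranking in torpor.

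The comparison that owes nothing to the choice of H1-4 is winter active against arousal, which asks what differed between 2 h and 26 h after capture. H1-4 was lower in both winter active libraries than in both arousal libraries, with a mean 5.49-fold lower. The difference was -1.85 on the log2(level + 1) scale (SE 0.37), which did not pass over all 13542 genes tested (unadjusted p = 0.00147, limma adjusted p = 0.825). No gene in the table passed in this comparison (0% called), while 738 genes (5.45%) had an unadjusted p under 0.05 by limma. Libraries that do not overlap are common with 2 a state: 21.3% of genes were lower in both winter active libraries than in both arousal libraries. The sign held in 17 of 17 other settings, from -2.45 to -1.56. Many of these cannot move this difference: those that change only the filter, the variance estimate, the replicate block or libraries of other states. The sign could turn only with another pseudocount or scaling, or without an arousal or winter active library. With no library left out, limma adjusted p ran from 0.558 to 0.843.

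The remaining differences of H1-4 share torpor or summer libraries with the observation that chose it, and are values with no test. Torpor lay above summer active by 2.94 (SE 0.37), a ratio of means of 12.6, and 30 of the 13542 genes had a larger difference in that direction. In that comparison 10 genes (0.0738%) were called higher over all genes, and nothing is read from H1-4 being 1 of them. Arousal lay above summer active by 1.75, arousal minus torpor was -1.19 and winter active minus torpor was -3.05. Winter active and summer active differed by -0.11 (SE 0.37), and that sign turned in 3 of 17 other settings, many of which cannot move this difference. Without torpor 1, the library with the highest value, torpor minus summer active was 2.52 and arousal minus torpor was -0.77. Without torpor 2 these were 3.37 and -1.62.

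**Figure D2:**
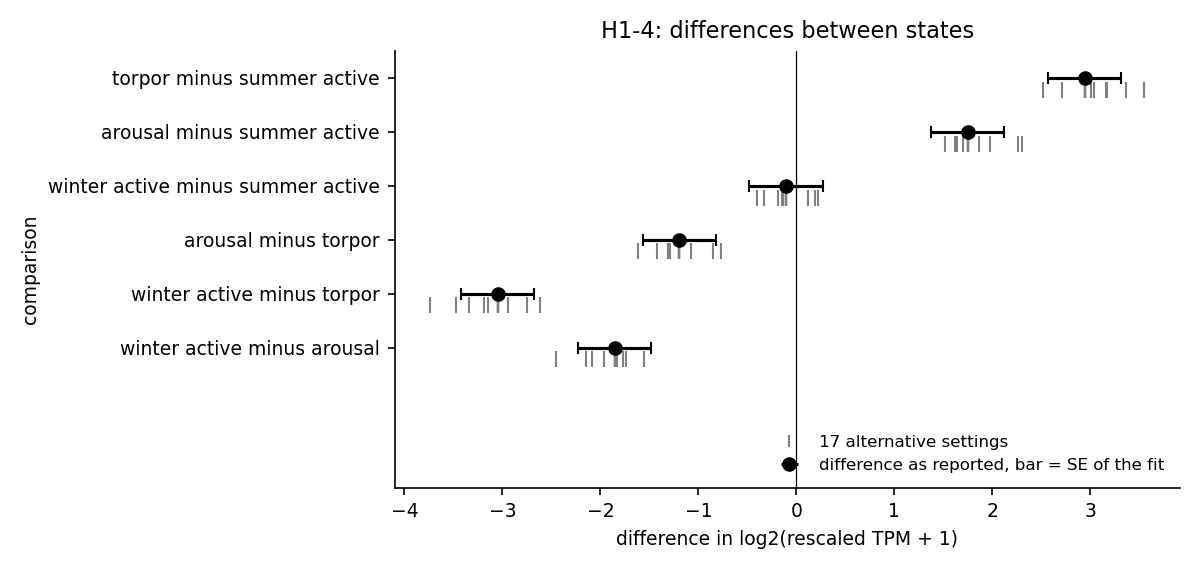
Differences of H1-4 between states in log2(rescaled TPM + 1); black points and bars are the reported difference and its SE, grey ticks the 17 other settings. The 5 comparisons that involve torpor or arousal keep their sign in all settings shown, while winter active minus summer active lies on both sides of 0. Settings that change only the filter, the variance estimate, the replicate block or libraries of other states repeat the reported difference.

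H1-1 and H1-5 were at the limit of what the table resolves. H1-1 (NCBI gene 117015311) had a mean of 0.226 over the 8 libraries: it stood at 0.730 and 0.298 in torpor and at 0.328 and 0.225 in summer active. It was listed at 0 in both arousal libraries and in winter active 2, and at 0.230 in winter active 1. H1-1 was thus also highest in a torpor library, torpor 1, but torpor 2 lay below summer active 1, so the states overlapped. H1-5 (NCBI gene 117015307) had a mean of 0.220 and ranged from 0.107 in summer active 1 to 0.428 in summer active 2, so that the 2 extremes of the gene were replicates of 1 state. Neither gene reached the mean of 1 required for testing, so 1 of 3 members was tested. When all 19652 genes were tested with no such requirement, neither passed in any of the 6 comparisons, and their smallest adjusted p by limma was 0.226, for H1-1 in arousal minus torpor (-0.58, SE 0.17).

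H1-4 lies in a dense stretch of genes. In the annotation of assembly mRhiFer1_v1.p, H1-1, H1-4 and H1-5 sit in this order on 1 chromosome, with 48 protein-coding genes between H1-1 and H1-5, of which H1-4 is 1. Of these, 38 carry only a locus number, and the annotation used here gives them no other name. No source used here names the build of the values, so only the order of genes was used. This stretch was examined after the values had been seen.

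Several of the locus-number genes near H1-4 were also high in torpor. LOC117015314, the next gene after H1-4, stood at 29.5 and 10.6 in torpor and at 13.5 and 10.5 in arousal. It stood at 6.03 and 2.04 in summer active and at 3.24 and 3.44 in winter active, so its torpor and arousal libraries overlapped while both lay above the other 4. LOC117015317, the gene just before H1-4, stood at 12.3 and 6.43 in torpor and at 12.7 and 3.33 in arousal, against 2.19 to 2.74 in the other 4 libraries. Its arousal values were thus as high as torpor in 1 library and near summer in the other. LOC117015342, 3 places after H1-4, stood at 26.7 and 13.1 in torpor and at 2.73 to 6.55 in the other 6 libraries, so that it was high in torpor with arousal already inside the range of the active states. LOC117015309, 10 places after H1-4, had another pattern, with 21.0 and 10.5 in summer active, 22.6 and 7.63 in torpor, 6.68 and 4.51 in arousal and 2.53 and 1.37 in winter active. The level of these genes relative to H1-4 is per length of transcript and carries the same uncertainty over shared reads.

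Over the 17 locus-number genes of the stretch with a mean of at least 1, the median difference between torpor and summer active was 0.90, against -0.055 over all genes tested. Of the 17, 11 were higher in both torpor libraries than in both summer active libraries, against 20.4% of all genes and 19.8% of the 1228 locus-number genes tested. Against torpor, 12 of the 17 were lower in both winter active libraries, with a median of -1.12, where 21.3% of all genes were lower in this way. Against arousal, 10 of the 17 were lower in both winter active libraries, with a median of -0.65, where 21.3% of all genes were lower in this way. None of the 24 genes tested in the stretch beside H1-4 passed over all genes in any of the 6 comparisons by limma. The requirement of a mean of 1 favours genes that are high in some state, so these counts describe the genes that met it and not the stretch as a whole, and 4 of its locus-number genes were listed at 0 in all libraries. Leaving out torpor 1 gave 11 and 12 of the 17 in the first and second count, where the shares of all genes were then 32.9% and 32.4%. The counts thus stood less far above these shares, but this is not particular to torpor 1. A lone library is then compared with a pair, which raises the share whichever library is left out. The shares were then 31.3% to 35.1% in the first count and 31.2% to 33.2% in the second.

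The 7 named genes tested in the same stretch had smaller differences between torpor and summer active. HFE, a regulator of iron uptake, stood at 25.4 and 32.1 in torpor and at 55.5 and 25.1 in summer active, and its difference was -0.38. The nucleosome-binding protein gene HMGN4 differed by 0.20, ABT1 by -0.10 and the zinc finger gene ZNF322 by -0.12 between torpor and summer active. ZNF184, another zinc finger gene, differed by 0.50 and was the 1 of the 7 whose torpor libraries both lay above the summer active libraries.

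**Figure D3:**
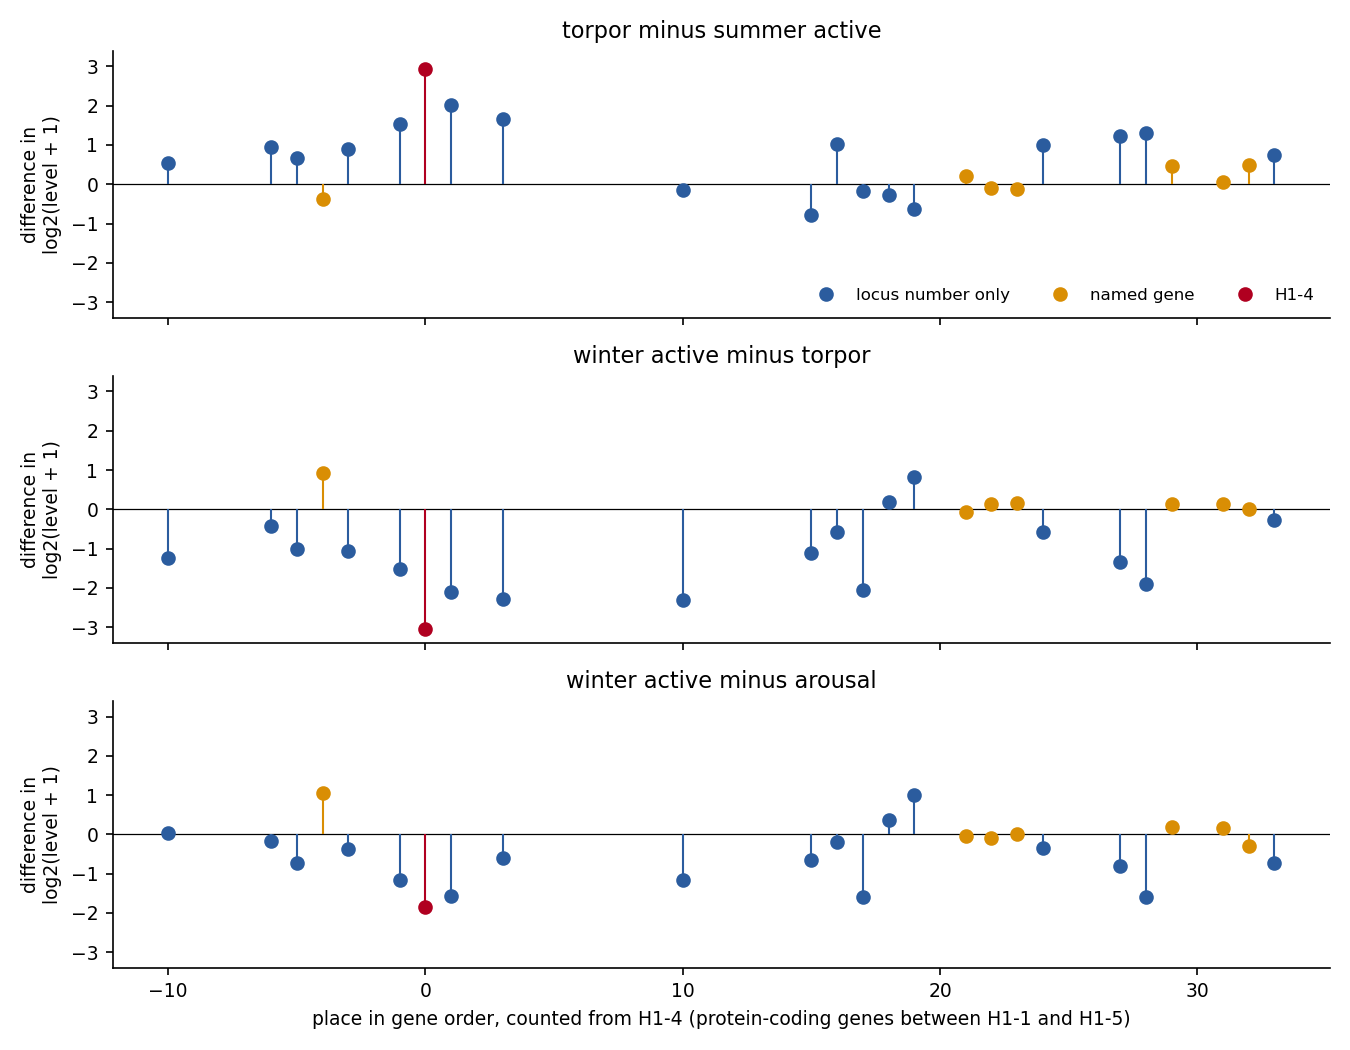
Differences in log2(rescaled TPM + 1) for the tested protein-coding genes from H1-1 to H1-5, placed by gene order from H1-4 (red) with locus-number genes in blue and named genes in orange. In torpor minus summer active, H1-4 stands at 2.94 and its next neighbour at 2.02, while the named genes lie between -0.38 and 0.50.

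The cell cycle genes, with which replication-dependent histone genes are normally expressed, lay apart from H1-4 between torpor and summer active. Like H1-4, most of them were lower in arousal and in winter active than in torpor. Each gene was taken as a distance from its own 8-library mean, and the median of these distances was taken over each list. For 30 tested S phase genes, which serve DNA replication, this median was 0.32 and 1.14 in the summer active libraries. H1-4 lay there below its own mean (-0.92 and -1.37). In torpor the S phase median lay at 0.038 and -0.20 and the median of 22 mitosis genes at -0.052 and -0.058, where H1-4 lay at 2.22 and 1.37. The torpor medians of both lists thus lay below those of both summer libraries. They lay above those of all 4 arousal and winter active libraries, which ran from -0.48 to -0.23 for S phase and from -0.995 to -0.395 for mitosis genes. In torpor minus summer active, 29 of 30 S phase and 22 of 22 mitosis genes had a negative difference (medians -0.79 and -1.45, against -0.055 over all genes), and none passed over all genes, where 66 (0.487%) were called lower. In arousal minus torpor, 22 of 30 S phase and 20 of 22 mitosis genes were lower (medians -0.33 and -0.64, against 0.11 over all genes). In winter active minus torpor, 23 of 30 and 21 of 22 were lower (medians -0.30 and -0.63, against 0.079), and no gene passed in either comparison. In winter active minus arousal, where H1-4 differed by -1.85, most members of both lists did not go its way. There 18 of 30 S phase and 13 of 22 mitosis genes were higher (medians 0.035 and 0.026, against -0.037 over all genes).

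In arousal minus summer active, 11 S phase genes fell, among them MCM3, MCM5, RRM2, TYMS, RFC4, CDT1, UHRF1, TK1, E2F1 and CCNE1. The differences of these named genes ran from -3.28 for the ribonucleotide reductase subunit RRM2 to -1.10 for the clamp loader subunit RFC4, and the list median was -1.12. Of all genes, 425 (3.14%) were called lower in this comparison and 323 (2.39%) higher. In the same comparison 16 of 22 mitosis genes fell (CCNB1, CCNB2, CDK1, AURKA, AURKB, BIRC5, UBE2C, TOP2A, BUB1, CDC20, PLK1, KIF11, KIF20A, NUSAP1, TPX2 and NUF2), with a list median of -2.00. Summed erythroid markers (6 of 7 listed) went from 5718 and 8611 in summer active to 1.73 and 3.72 in arousal, and the squamous keratin gene KRT4 (1 of 3 listed squamous markers) stood at 1617 in summer active 2 and at most at 1.21 in the other 7 libraries. The part of these cells in the cell cycle differences was not tested. BIRC5, a subunit of the chromosomal passenger complex and the mitosis gene with the highest mean, stood at 26.6 and 24.8 in arousal against 151 and 265 in summer active (-2.91, SE 0.29, limma adjusted p = 0.00624). In winter active minus summer active, 11 mitosis genes (CCNB1, CCNB2, CDK1, AURKB, BIRC5, BUB1, CDC20, PLK1, KIF11, TPX2 and NUF2) and no S phase gene passed, all lower, where 121 genes (0.894%) were called lower. The S phase genes with the highest means, PCNA and SLBP, differed by -0.75 and -0.46 in arousal minus summer active and did not pass.

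**Figure D4:**
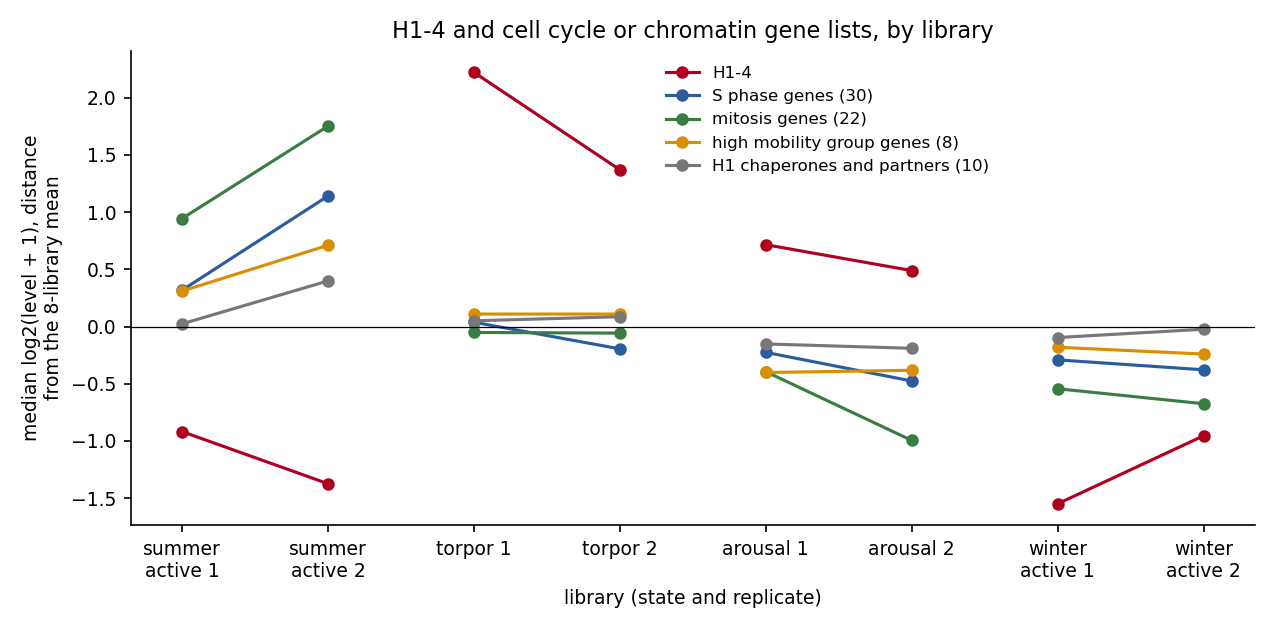
Median over the genes of each list, per library, of log2(rescaled TPM + 1) as a distance from each gene's own 8-library mean. H1-4 is in red, and lines join the 2 libraries of a state. H1-4 stands at 2.22 and 1.37 in torpor and below 0 in the summer and winter active libraries, whereas S phase and mitosis medians are highest in summer active and next in torpor.

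Few genes that make, process or handle histone messages passed the test, and few of all genes did. Over all genes tested, 0.561%, 5.52% and 1.03% passed in torpor, arousal and winter active minus summer active. The counts below are therefore not read as a trait of these lists. SLBP, the stem-loop binding protein that replication-dependent histone messages need for maturation and translation, stood at 153 and 250 in summer active, 148 and 96.9 in torpor, 158 and 127 in arousal and 120 and 118 in winter active. Its torpor libraries thus lay below both summer libraries (-0.71, SE 0.30, limma adjusted p = 0.31), on the other side from H1-4. CPSF3, the nuclease subunit that cuts histone pre-messages, differed by 0.39 in torpor minus summer active (limma adjusted p = 0.345). Of 17 tested genes for histone gene transcription and 3′ end processing, none passed in any comparison with summer active, and the list median in torpor minus summer active was -0.083. Of 8 genes for histone message translation and decay, 1 passed: TUT4, a terminal uridylyltransferase, rose in arousal, at 14.7 and 9.70 against 4.48 and 3.59 in summer active (1.37, SE 0.28, limma adjusted p = 0.0425). MIF4GD and LSM1, the members of that list with the highest means, differed by 0.11 and 0.23 in torpor minus summer active and did not pass.

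Genes for proteins that share chromatin with H1 had mostly negative differences from summer active. In torpor, arousal and winter active, 5, 6 and 7 of 8 high mobility group genes and 8, 8 and 7 of 10 chaperones and partners were negative. The medians were -0.40, -0.94 and -0.67 for the first list and -0.22, -0.49 and -0.28 for the second. Over all genes they were -0.055, 0.083 and 0.046, so a negative sign alone is common, and 5 of 8 is close to an even split. High mobility group proteins bind nucleosomes or linker DNA in competition with H1, and 3 of 8 tested fell in arousal minus summer active, where 3.14% of all genes were called lower. HMGB3 stood at 5.84 and 7.40 in arousal and at 26.0 and 38.1 in summer active (-2.10, SE 0.30, limma adjusted p = 0.0209). HMGB2 and HMGN2 fell by 2.21 and 1.06, and HMGB3 also fell in winter active (-2.16). None of the 8 passed in torpor minus summer active, where their median was -0.40. All 8 were lower, without passing, in arousal minus torpor and in winter active minus torpor, the direction H1-4 also took. Their medians were -0.55 and -0.43, against 0.11 and 0.079 over all genes. Among 10 histone chaperones and partners, NAP1L1, a nucleosome assembly protein, fell in arousal (-1.17, SE 0.26, limma adjusted p = 0.0486), while PTMA and NPM1, the most abundant, differed by -0.55 and -0.46 and did not pass. CENPA, the centromeric H3 variant and the only listed replacement histone matched by name, stood at 2.51 and 2.00 in arousal against 13.2 and 28.1 in summer active, and fell in arousal (-2.65) and winter active (-2.53) but did not pass in torpor (-1.82).

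Of 18 tested enzymes that modify linker histones, 2 passed, both kinases that phosphorylate H1 or chromatin in mitosis. CDK1 fell in arousal (-2.63) and in winter active (-2.23), as did AURKB (-2.62 and -2.45), each against summer active, and both genes are also counted among the mitosis genes. Over all genes tested, 3.14% were called lower in arousal and 0.894% in winter active against summer active. CDK9 and UBE2N, with the highest means of the list, differed by -0.098 and -0.15 in torpor minus summer active and did not pass. The 33 genes of these lists that passed in arousal minus summer active depended on the libraries fitted: 31 remained without summer active 1, 2 without summer active 2, 15 without either torpor library, 2 without arousal 1, 0 without arousal 2 and 11 without either winter active library. Of the 13 that passed in winter active minus summer active, 13, 1, 3, 3, 4, 4, 0 and 0 remained when summer active 1 and 2, torpor 1 and 2, arousal 1 and 2 and winter active 1 and 2 were left out in turn. No list could hold a call against torpor, since 0 genes (0%) passed in arousal minus torpor or winter active minus torpor by limma, with 2666 and 1787 genes at an unadjusted p under 0.05.

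The 5 named genes whose pattern was most like that of H1-4 over the 8 libraries had far smaller differences. By Pearson's r on log2(level + 1) they were NOM1 (0.987), the elongin C gene ELOC (0.985), the melanosome transporter gene SLC45A2 (0.979), the RNA polymerase I subunit gene POLR1E (0.965) and the acid ceramidase gene ASAH1 (0.964). The 8 points fall into 4 states and share their libraries, so these values describe likeness only. SLC45A2 was near the floor and met the required mean of 1 only through torpor and arousal. Its means were 1.53 and 1.16 there, against 0.746 in summer active and 0.621 in winter active. NOM1, a nucleolar protein gene, stood at 26.2 and 22.9 in torpor, 21.6 and 19.3 in arousal, 16.4 and 15.4 in summer active and 13.9 and 16.8 in winter active. It shared the order of H1-4 with a torpor minus summer active difference of 0.59, where H1-4 had 2.94. In winter active minus arousal the 5 differed by -0.42 to -0.20, and none passed (limma adjusted p from 0.825 to 0.844).

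**Figure D5:**
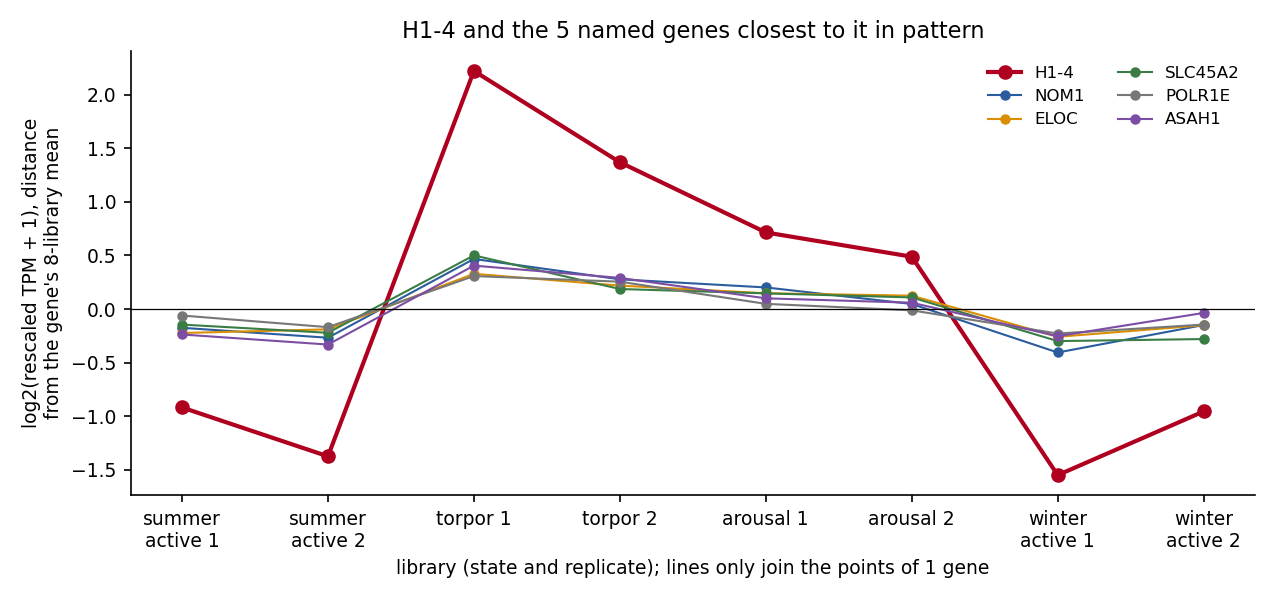
Log2(rescaled TPM + 1) of H1-4 (red) and of the 5 named genes with the highest Pearson's r to it, as a distance from each gene's 8-library mean, in the 8 libraries. All 6 genes have their highest mean in torpor and the next in arousal, and H1-4, at 2.22 in torpor 1, varies over a wider range than the others.

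Transcripts of other cell types differed between the same libraries. From summer active to torpor, summed levels of 4 pancreatic genes went from 14.4 and 11.8 to 1304 and 314, and those of 3 adipocyte genes from 5.05 and 4.73 to 63.5 and 53.1. Summed natural killer cell genes (4 of 5 listed) went from 50.2 and 30.4 to 81.9 and 60.7, and macrophage genes (7 of 7 listed) from 10002 and 3334 to 14096 and 13313. Members of these lists differed: GNLY, CD68, C1QA, TIMD4 and VCAM1 were higher in both torpor libraries. The others, NKG7, KLRB1, NCR1, C1QB, CD163 and VSIG4, overlapped between torpor and summer active. Over the same step, erythroid genes (6 of 7) went from 5718 and 8611 to 127 and 85.1 and B cell genes (6 of 6) from 2340 and 2737 to 700 and 757. Torpor 1, where H1-4 was highest, also held the highest summed level of 6 neutrophil genes, 12239 against 1585 in torpor 2. The torpor 2 sum lay below those of summer active, 2096 and 2427, and the lowest sum, 1004, was in arousal 1. Hepatocyte genes (5 of 5) stood at 918 and 16074 in arousal against 69.8 and 49.0 in winter active. They stood at 2071 and 55.1 in summer active and at 692 and 77.8 in torpor, so they varied widely within states. Pancreatic sums stood at 33.8 and 674 in arousal and at 20.7 and 91.7 in winter active. Adipocyte sums stood at 32.5 and 190 in arousal and at 36.8 and 199 in winter active, so arousal 2 and winter active 2 lay above both torpor libraries. The gastric gene GKN1 (1 of 2 listed gastric markers) stood at 666 in winter active 2, 23.1 in torpor 2 and at most 0.183 in the other libraries. No marker list had all torpor libraries above all arousal libraries and those above all summer and winter active libraries, as H1-4 did, and the part of these cells in the H1-4 levels was not tested.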

How the data were processed

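RNA sequencing of whole spleen gave 8 libraries. Per the submitters' processing notes, kallisto 0.46.2 and sleuth 0.30.0 were used; no source used here gives the reference transcriptome, gene summing or rescaling. The deposited table holds 1 rescaled TPM signal per gene and library, and its columns do not sum to 1000000, so it was treated as a signal comparable between libraries. A TPM unit had been assumed in planning, and the same test on a log scale was kept. All 19652 gene identifiers and symbols matched the annotation of mRhiFer1_v1.p, which served for names and gene order.

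Genes with a mean of at least 1 (13542) entered limma 3.58.1 (R 4.3.3) as log2(value + 1) (4 states in 1 fit, 6 contrasts, eBayes with a trend, 4 residual and 3.29 prior degrees of freedom). The threshold was a Benjamini-Hochberg adjusted p under 0.05 over all genes. This fold scale understates the change of low genes. The members and gene lists were chosen with earlier results of these data known. Named were all members, the 5 named genes most like H1-4 in pattern, list genes past the threshold and the 2 of highest mean in each list; 1 gene that this rule takes is not reported here. No row carried a core histone name of the cluster type (0 rows). The labels call the replicates biological but tie none to an animal. No sequence was analysed here. Alternatives were other pseudocounts, filters, scalings, a replicate block, 2-state fits and leaving out each library.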

Additional observations from a re-analysis of the deposited data

How the results depend on the processing

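With 2 libraries a state, 1 library can carry a call. H1-4 in winter active minus arousal kept its sign in all 17 alternatives, many of which cannot move this difference. It ran from -2.15 to -1.56 in fits without 1 library and was -2.45 with a pseudocount of 0.1. It missed the threshold in every alternative with no library left out. With the replicate block it was -1.85 (SE 0.37, adjusted p = 0.713). Deviations of same-numbered libraries correlated over 0.1 in 4 of 6 pairs of states and below 0 in the others. The range over all 6 was -0.19 to 0.32, so the signs were mixed. The labels tie no replicate to an animal, and the numbers were not taken as pairs outside the replicate block. H1-1 and H1-5 were tested with no filter only, and neither passed there. In the other settings no member beside H1-4 was tested, so no count of members is read from them. H1-4 in winter active minus summer active turned to 0.22 with columns rescaled to 1000000, 0.12 without summer active 1 and 0.19 without winter active 1, and ran from -0.40 to 0.19 over the fits without 1 library. It did not pass in any setting, and the cause was not tested. The rescaling moved the all-gene medians to 0.29 in torpor minus summer active and -0.22 in winter active minus arousal, where H1-4 stood at 3.16 and -2.09. Genes past the threshold numbered 76 in torpor minus summer active (9 to 312 over the alternatives), 748 in arousal minus summer active (25 to 6099) and 140 in winter active minus summer active (15 to 779). They numbered 0 in arousal minus torpor (0 to 445), winter active minus torpor (0 to 6) and winter active minus arousal (0 to 2). Of the 33 list genes called in arousal minus summer active, 31 lost the call with no filter, 33 in a fit of the 2 states alone, 6 after rescaling, 5 under quantile normalization and 4 with the replicate block; of the 13 in winter active, 13, 13, 1, 0 and 6 did. Leaving out libraries in the counts of locus-number genes near H1-4, chosen after seeing the data, gave 11 to 14, 12 to 15 and 10 to 15 of 17, while the shares of all genes lay between 31.3% and 35.1%, 31.2% and 33.2%, and 32.1% and 39.9%. A lone replicate was assumed to vary like the other states.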

Other observations

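The locus-number genes most like H1-4 in pattern, chosen after their values were seen, lie near each other in the annotation and outside the stretch from H1-1 to H1-5. LOC117024590 (Pearson's r with H1-4 of 0.961 over 8 libraries) stood at 14.6 and 18.6 in torpor and 9.62 and 3.65 in arousal, and LOC117024588 (0.957) at 12.5 and 9.59 in torpor and 3.66 and 1.22 in arousal. In the other 4 libraries both genes stayed between 0 and 0.734. The gene between them in the annotation, LOC117024589, stood at 2.66 and 2.11 in torpor and 1.17 in arousal 1 and was listed at 0 in the other 5 libraries. Torpor minus summer active was 3.52 (SE 0.41) for LOC117024590 and 3.37 (SE 0.41) for LOC117024588, given with no test because both were picked for their likeness to H1-4. All 3 genes span 561 bases in the annotation, which gives them no name, and reads may be divided between them if their sequences are alike, which was not tested. Inside the stretch from H1-1 to H1-5, LOC117015333 and LOC117015314 came close to this likeness, with an r of 0.954 and 0.947.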
